A study of Mus musculus with 17 samples.

Results

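Nfkbid encodes IkBNS, an atypical nuclear member of the IkB family that modulates the activity of NF-kB dimers on chromatin. In mice it is known for its part in the development of Foxp3+ regulatory T cells (Tregs), the T cells that restrain immune responses. Its gene lies on mouse chromosome 7 beside Tyrobp, which encodes DAP12, and Hcst, which encodes DAP10. Both are short membrane adaptors that pass signals from activating receptors of natural killer (NK) and myeloid cells. DAP12 does so through an ITAM and DAP10 through a motif that recruits PI3-kinase and Grb2. Thap8, farther upstream, encodes a protein with a THAP domain, a zinc-binding DNA-binding fold.

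The count rows that carry these 4 names were examined, out of 47643 rows in the deposited table. They were chosen by name, with it already known that the Tyrobp and Hcst rows were high in transgenic libraries, and the question was in which row the counts that set those libraries apart are found. Values of these rows in comparisons with the transgenic libraries are therefore a description, with no p and with nothing read from them. The word row is used because counts under a gene's name may not come from that gene in this table. B2m, Cox6b1 and Aplp1 were listed at 0 in all 17 libraries, Eef1a1 held at most 2 counts and Actb at most 7, although B2m, Actb and Eef1a1 are among the most abundant transcripts of T cells. Of the 47643 rows, 22271 held no count in any library.

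The libraries were made from polyA RNA of splenic Tregs, sorted as GFP+ cells after enrichment of CD4+ cells from NOD mice, the nonobese diabetic strain, all carrying the Foxp3-GFP reporter. The 6 transgenic libraries came from the line NOD-60A, which carries an Nfkbid transgene, 5 knockout libraries from NOD mice lacking Nfkbid (NOD-Nfkbid-KO), and 6 control libraries from NOD.Foxp3-GFP mice without either change. Each transgenic library was made from 1 sample, whereas each knockout and control library pooled 2, so genotype and pooling cannot be told apart in either comparison with the transgenic libraries. The labels name 1 transgenic line, no promoter for the transgene, no age, and the same batch date for every library. Identifiers in the library names start differently for control libraries than for the rest. The column names hold a further number, whose meaning is not given, with ranges that do not overlap between transgenic and knockout libraries. Whatever it stands for cannot be told apart from genotype there. Library totals were 3210568 to 3366515 counts for transgenic libraries, 3462586 to 3705953 for knockout and 3133388 to 4726615 for control, so that 3 counts were worth 0.635 to 0.957 CPM (counts scaled to the library total). Nothing in the labels says that libraries came from separate animals, so a p-value here covers only the spread from library to library, which may be technical.

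The sorted population was checked against markers. Their lists were chosen with earlier results of these data known, so calls among them are a description. The Foxp3 row held 792.34 to 1567.89 counts per library and was called in no comparison. Of the 5 tested Treg marker rows, edgeR called 2 higher in transgenic against control (Ikzf2 and Izumo1r), where 7.4% of all tested rows were called. In knockout against control it called 1 higher (Ikzf2) and 1 lower (Izumo1r), where 1.89% were called. In transgenic against knockout it called 2 higher (Ctla4 and Izumo1r), where 10.7% were called. The summed CPM of the 6 Treg marker rows was 957.0 to 1080.0 over the transgenic libraries, 819.7 to 920.6 over the knockout and 873.7 to 997.5 over the control libraries, with Tnfrsf18 at no more than 1 count. Because DAP12 and DAP10 are adaptors of NK and myeloid cells, rows of both cell types were summed beside them. The 7 NK marker rows came to 13.96 to 26.63 CPM in the transgenic group, 16.83 to 29.39 CPM in the knockout group and 18.83 to 26.31 CPM in the control group, and the 7 myeloid marker rows to 73.67 to 109.6 CPM, 72.22 to 119.4 CPM and 77.5 to 109.6 CPM in the same order. None of the 3 tested NK rows and none of the 3 tested myeloid rows was called in any comparison. Of the NK marker rows, Prf1 held at most 1 count, Ncr1 at most 3.23, Klrb1c at most 10 and Klre1 at most 13. Nkg7 held 15 to 41 counts per library, Eomes 3 to 63 and Gzma 3 to 38. Of the myeloid marker rows, Cst3 was at 0 throughout, Lyz2 held at most 1 count, Itgam at most 6 and Fcer1g at most 7. Cd14 held 99 to 220 counts per library, Spi1 87 to 189 and Csf1r 24 to 77. The abundant B2m was at 0 too, so a marker row at 0 does not show that its transcript was missing. The part of other cell types in the values below was not tested.

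On GRCm38 the 3 adjacent genes lie side by side on chromosome 7. Tyrobp (ENSMUSG00000030579, 30413760 to 30417585, plus strand) starts 8.0 kb before Nfkbid, and Hcst (ENSMUSG00000064109, 30417712 to 30419854, minus strand) starts 4.0 kb before it. Nfkbid itself (ENSMUSG00000036931) runs from 30421732 to 30428746 on the plus strand. Thap8 (ENSMUSG00000013928, 30280094 to 30290237, plus strand) starts 141.6 kb before Nfkbid. Coding exons of Nfkbid and Tyrobp are shown here, to be set against a library read of 67 bases. The capitals mark the bases that coincide when the exons of Tyrobp are moved 10.8 kb along the chromosome, a move described further on. In exon 6 of Nfkbid they cover 48 bases, fewer than a read. Those bases coincide with Tyrobp exon bases outside the Tyrobp exon printed. The exons are exon 4 of Nfkbid (chr7:30425222-30425409), exon 6 of Nfkbid (chr7:30425709-30425855) and exon 3 of Tyrobp (chr7:30414504-30414650), all from the plus strand and from a GENCODE annotation of GRCm38.
Nfkbid exon 4: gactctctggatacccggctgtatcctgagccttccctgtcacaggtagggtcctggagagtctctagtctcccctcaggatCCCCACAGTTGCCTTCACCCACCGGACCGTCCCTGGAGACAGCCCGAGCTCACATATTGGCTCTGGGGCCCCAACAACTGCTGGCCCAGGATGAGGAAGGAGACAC
Nfkbid exon 6: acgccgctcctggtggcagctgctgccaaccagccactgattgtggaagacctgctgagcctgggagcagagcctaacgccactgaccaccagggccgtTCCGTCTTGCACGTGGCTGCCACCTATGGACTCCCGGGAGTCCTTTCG
Tyrobp exon 3: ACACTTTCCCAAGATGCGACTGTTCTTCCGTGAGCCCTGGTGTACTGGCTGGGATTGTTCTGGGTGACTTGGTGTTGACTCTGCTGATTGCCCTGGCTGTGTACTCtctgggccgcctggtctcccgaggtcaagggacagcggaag

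The transcripts of these genes do not resemble each other. The longest run of identical bases shared by any transcript of Tyrobp and any of Nfkbid was 11 bases, and it was 12 bases for Hcst and Nfkbid, for Thap8 and Nfkbid and for Tyrobp and Hcst. All of these are far shorter than a read. The 106 capital bases of Tyrobp exon 3 and of Nfkbid exon 4 coincide by position and not by letter. Over the 415 bases of Tyrobp exons that fall on Nfkbid exons after that move, 22.4% were identical, and over 135 bases of Hcst exons 28.1% were.

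The row named after the targeted gene is given first. The Nfkbid row held 32, 25, 33, 24, 26 and 30 counts in transgenic replicates 1 to 6, which is 9.505, 7.653, 10.28, 7.278, 8.088 and 9.222 CPM. It held 31, 9, 20, 8 and 14 counts in knockout replicates 1 to 5, or 8.747, 2.518, 5.397, 2.31 and 3.919 CPM. In control replicates 1 to 6 it held 21, 11, 20, 14, 18 and 18 counts, or 4.443, 3.196, 5.675, 4.374, 5.745 and 5.091 CPM. Every transgenic library lay above every control library, knockout replicate 1 lay among the transgenic libraries, and the other knockout libraries lay within or below the range of the controls.

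The test did not separate knockout from control libraries in this row. The means were 4.58 ± 2.64 CPM in knockout libraries (SD, n = 5) and 4.75 ± 0.96 CPM in control libraries (SD, n = 6). The log2 fold change was 0.06 (SE 0.305, adjusted p = 0.914 by the quasi-likelihood test of edgeR, with Benjamini-Hochberg adjustment over 9986 rows). The summed counts gave a ratio of 0.971 with a 95% counting interval of 0.717 to 1.31, which covers counting error only. The direction turned with single libraries, to -0.24 without knockout replicate 1, -0.01 without knockout replicate 3 and -0.02 without control replicate 2. The row thus did not tell libraries labelled knockout from those labelled control, and transgenic, knockout and control mean libraries so labelled throughout. In bulk RNA, fewer cells of a type and less RNA per cell cannot be told apart.

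In transgenic libraries the Nfkbid row averaged 8.67 ± 1.18 CPM (SD, n = 6), 1.82 times the control mean and 3.92 CPM above it. The fitted log2 fold change was 0.94 (SE 0.282) against control and 0.87 (SE 0.298) against knockout. The call against control ended when any 1 transgenic or any 1 control library was left out, with log2 fold changes of 0.85 to 0.99. The edgeR call against knockout, absent with all libraries, appeared without knockout replicate 1, at 1.18. DESeq2 and limma with voom called the row against knockout with all libraries.

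The large difference lay in the Tyrobp row. It held 2184, 2569, 2044, 2159, 1371 and 2151 counts in transgenic replicates 1 to 6, against 54, 31, 48, 44 and 38 counts in knockout replicates 1 to 5 and 44, 23, 45, 37, 45 and 23 counts in control replicates 1 to 6. The lowest transgenic library, replicate 5, was still many times the highest of the other 11, and the knockout and control libraries overlapped. In CPM the means were 636 ± 116 in transgenic (SD, n = 6), 12.0 ± 2.49 in knockout (SD, n = 5) and 10.2 ± 3.24 in control libraries (SD, n = 6). The fold of the means against control was 62.3, and the ratio of summed counts was 63.2 with a 95% counting interval of 55.3 to 72.7. The fitted log2 fold changes were 6.04 (SE 0.19) against control and 5.67 (SE 0.201) against knockout.

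The Hcst row showed the same pattern from a lower base. It held 465, 678, 622, 577, 387 and 583 counts in transgenic replicates 1 to 6, against 0, 4, 5, 3 and 18 counts in knockout replicates 1 to 5 and 2, 2, 1, 1, 3 and 4 counts in control replicates 1 to 6. Apart from knockout replicate 5, no knockout or control library exceeded 5 counts, so the level outside the transgenic libraries rests on very few reads. The means were 169 ± 33.3 CPM in transgenic (SD, n = 6), 1.68 ± 1.95 CPM in knockout (SD, n = 5) and 0.615 ± 0.353 CPM in control libraries (SD, n = 6). The 13 control counts together gave 0.603 CPM with an exact 95% Poisson interval of 0.321 to 1.03, and the ratio of summed counts, transgenic over control, was 280 with a counting interval of 164 to 527. The fitted log2 fold changes were 8.10 (SE 0.389) against control and 6.54 (SE 0.368) against knockout. Among the 9986 tested rows these ranked 1 and 32 from the top, and those of the Tyrobp row ranked 3 and 44. The ranks are a description of rows chosen for their rise.

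The Thap8 row was low everywhere. It held 3.86 to 8.69 CPM in transgenic libraries (median 5.09), 0 to 2.26 CPM in knockout libraries (median 0.56) and 0.872 to 3.68 CPM in control libraries (median 1.67). All transgenic libraries lay above all others, but the gap to the controls was narrow, with transgenic replicate 1 at 3.86 CPM and control replicate 6 at 3.68 CPM. The fitted log2 fold changes were 1.58 (SE 0.459) against control and 2.74 (SE 0.549) against knockout. Without transgenic replicate 2, 3, 5 or 6, or without control replicate 2, 3, 4 or 5, the call against control ended, at 1.42 to 1.62.

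All 4 rows passed the filter on low counts. The Hcst row had 10 or more counts in 1 and the Thap8 row in 2 of the 11 knockout and control libraries, so both passed through the transgenic libraries. Against control 4 of the 4 rows were called higher, where 5.23% of tested rows were, and against knockout 3 of 4, all except the Nfkbid row, where 6.34% were. Every transgenic library lay above every control library in all 4 rows, as in 3.76% of tested rows, and above every knockout library in 3 rows, as in 4.57%. These counts follow from the way the rows were chosen.

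**Figure D1:**
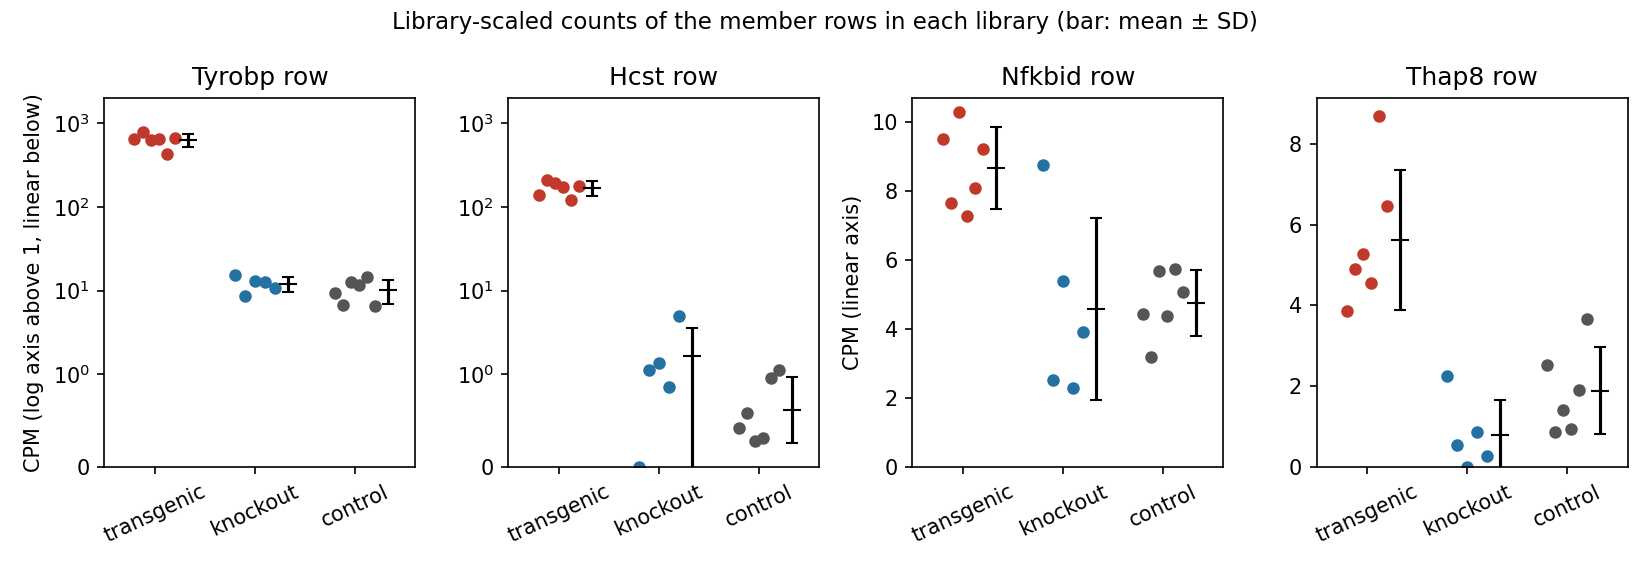
CPM of the Tyrobp, Hcst, Nfkbid and Thap8 rows in each library (points), by transgenic (n = 6), knockout (n = 5) and control (n = 6) group, with the mean and SD as bars cut at 0; the first pair of panels has an axis that is logarithmic above 1 and linear below, the other pair a linear axis from 0. In the Tyrobp row the transgenic libraries sit at 427 to 786 CPM, against 8.67 to 15.2 CPM for the knockout and 6.51 to 14.4 CPM for the control libraries, and in the Nfkbid row knockout replicate 1, at 8.75, lies among the transgenic libraries.

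Between knockout and control libraries 0 of the 4 rows was called by edgeR, where 1.89% of tested rows were, and the ranges of both groups overlapped in all 4. Of tested rows, 0.711% had every knockout library above every control library and 2.15% had every one below. DESeq2 and limma with voom called 0 as well, and 1 of the 4, the Hcst row, had an unadjusted p under 0.05 by edgeR. The Hcst and Thap8 rows did not pass the filter when knockout and control libraries were fitted alone, so their values here are given with no adjusted p and nothing is read from them. The Hcst row had a log2 fold change of 1.56 (SE 0.652). It was called only without knockout replicate 1, the library at 0 counts, at 1.91. Nothing is read from that call, since the row passed the filter through the transgenic libraries. Without knockout replicate 5, which held 18 of the 30 knockout counts, the value was 0.55. Leaving out knockout replicates 2, 3 and 5, the libraries with the fewest rows above 0, turned the Hcst value to -0.47, and this alternative was added with the data seen. The Tyrobp row had a log2 fold change of 0.38 (SE 0.202, adjusted p = 0.268 by edgeR), and the ratio of its summed counts was 1.2 (0.986 to 1.45). The Thap8 row had a log2 fold change of -1.16 (SE 0.579), with a ratio of summed counts of 0.402 (0.203 to 0.752).

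Scaled to the length of the exons each row names, the order of the levels changed between groups. In transgenic libraries the Tyrobp row led with 953 ± 174 CPM per kb of exon (667 bases), followed by Hcst with 234 ± 46.2 (722 bases), Nfkbid with 3.7 ± 0.501 (2346 bases) and Thap8 with 2.31 ± 0.712 CPM per kb (2432 bases; SD, n = 6 each). In control libraries the Tyrobp row was again the highest, at 15.3 ± 4.86 CPM per kb, with Nfkbid next at 2.03 ± 0.409, Hcst at 0.852 ± 0.489 and Thap8 at 0.778 ± 0.442 CPM per kb (SD, n = 6 each). Hcst and Thap8 did not differ there beyond their spread, and the same was true of Nfkbid and Hcst in knockout libraries, at 1.95 ± 1.13 and 2.32 ± 2.7 CPM per kb (SD, n = 5 each). These lengths apply only if the reads came from the genes the rows name.

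Summing the Tyrobp, Hcst and Nfkbid rows gives a level that does not depend on how reads were divided among the 3 neighbours. The sum was 813 ± 145 CPM in transgenic (SD, n = 6), 18.3 ± 4.41 CPM in knockout (SD, n = 5) and 15.6 ± 3.92 CPM in control libraries (SD, n = 6). The log2 fold of the mean sums was 5.71 for transgenic against control, 5.47 for transgenic against knockout and 0.23 for knockout against control. Within the sum the Tyrobp row held 78.1% in transgenic, 66.8% in knockout and 64.7% in control libraries, the Hcst row 20.8%, 9.42% and 4.24%, and the Nfkbid row 1.1%, 23.8% and 31.1%, in that order of groups. These shares follow from the rise of the Tyrobp and Hcst rows, for which they were chosen, and in CPM the Nfkbid row was not lower in transgenic libraries.

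The split between the Hcst and Tyrobp rows varied little among transgenic libraries. The Hcst counts were 0.213 to 0.304 of the Tyrobp counts in the 6 transgenic libraries (median 0.269). In the 4 knockout libraries with both rows above 0 they were 0.0682 to 0.474 of them (median 0.116), and in the 6 control libraries 0.0222 to 0.174 (median 0.055). Every transgenic ratio lay above every control ratio, and knockout replicate 5 lay above all of them. The mean log2 ratio was -1.91 ± 0.173 in transgenic libraries (SD, n = 6) and -4.19 ± 1.1 in control libraries (SD, n = 6), a difference of 2.27, given with no p because both rows were chosen for their rise. For knockout against control the difference of mean log2 ratios was 1.39 (two-sided exact permutation test, p = 0.114, and adjusted p = 0.114 over the 2 comparisons of the ratio, n = 4 and 6). It was 1.73 without control replicate 6 (exact permutation adjusted p = 0.0317), and 0.82 without knockout replicate 5. With 0.5 added to both counts, so that knockout replicate 1 enters, it was 0.35 (two-sided exact permutation p = 0.71, n = 5 and 6). Control ratios rest on 1 to 4 Hcst counts each, so their spread includes a large counting error. The Hcst row passed the filter on low counts through the transgenic libraries, so nothing is read from the p-values of the ratio.

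**Figure D2:**
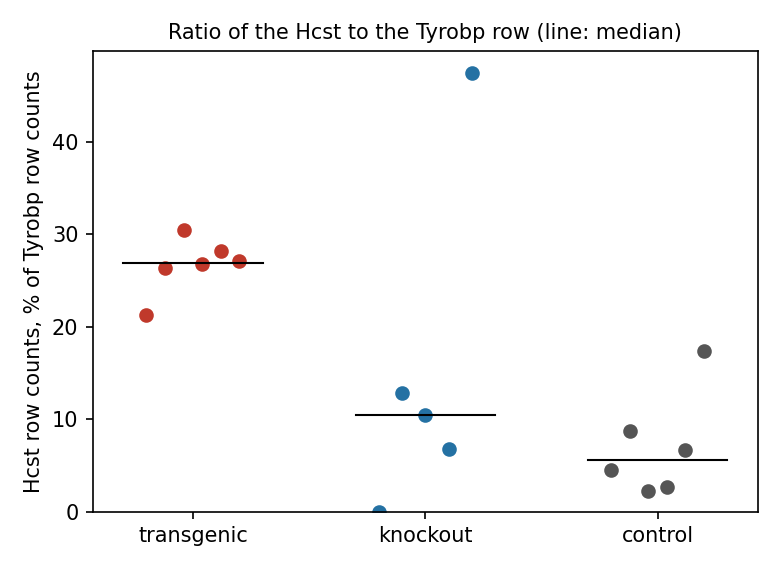
Hcst row counts as a percentage of Tyrobp row counts in each library (points) by group, with the group median as a line, over all libraries including knockout replicate 1 at 0. The 6 transgenic libraries lie close together, while knockout replicate 5 lies above them and the other knockout and control libraries below.

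The other rows of the neighbourhood were compared in the same fit. Of the 32 rows whose genes start within 150 kb of Nfkbid, 10 held no count in any library, 28 were not among the 4 rows above, and 14 of those 28 were tested. None of the 14 was called in transgenic against control, where 7.4% of all tested rows were, with log2 fold changes of -0.62 to 0.95 and a median of -0.1, against a median of -0.01 over all tested rows. None was called in knockout against control (median -0.26), where 1.89% of all tested rows were. In transgenic against knockout, where 10.7% were, 2 were called higher, the Sdhaf1 row, named after an assembly factor of mitochondrial complex II, at 2.86 (SE 0.8, adjusted p = 0.0242 by edgeR) and the E130208F15Rik row at 1.54 (SE 0.362, adjusted p = 0.00747 by edgeR). The genes of that pair overlap on opposite strands (30321406 to 30323895 and 30321740 to 30323472), and no source used here states whether counting used strand, so their reads may not be separable.

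Over the 32 rows the positive differences in CPM between transgenic and control means summed to 815. The Tyrobp row made up 76.7% of that sum, the Hcst row 20.6%, the Nfkbid row 0.48% and the Thap8 row 0.457%. Differences as small as those of the Nfkbid row (3.92 CPM) and the Thap8 row (3.73 CPM) were not particular to them. The difference was 6.4 CPM in the E130208F15Rik row and 3.59 CPM in the Sdhaf1 row. Rows around Tyrobp and Nfkbid were empty: 6 consecutive rows after Nfkbid (30432544 to 30487223) and 3 consecutive rows before Tyrobp (30347645 to 30362772) held 0 in all 17 libraries.

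**Figure D3:**
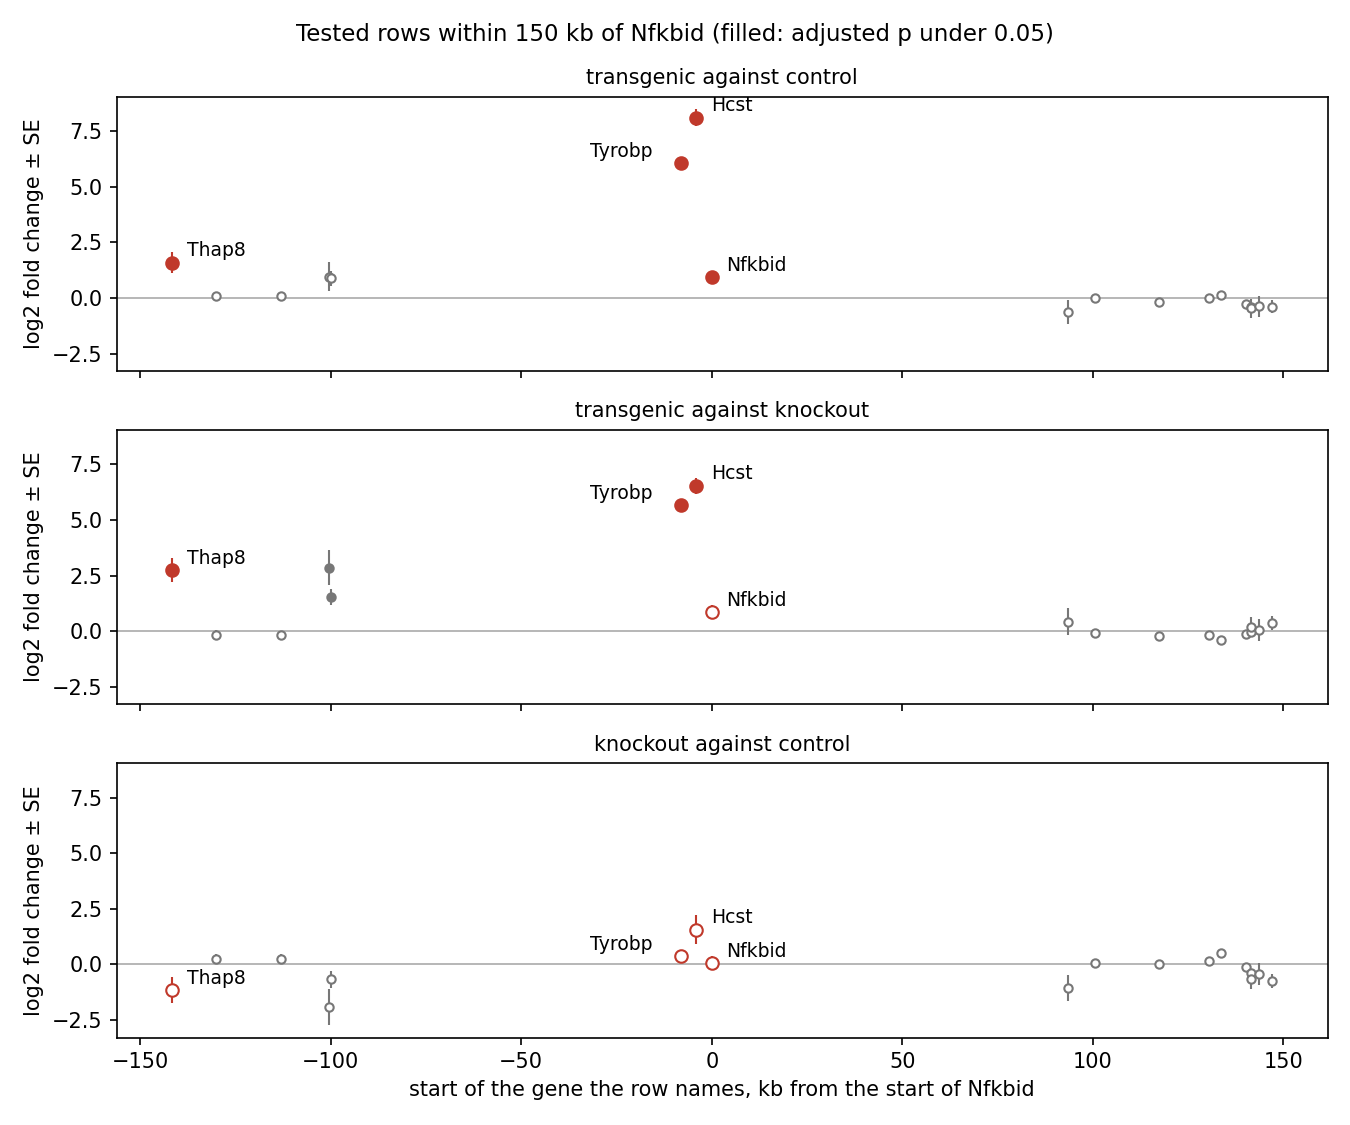
Log2 fold change with its SE from edgeR for the 18 tested rows within 150 kb of Nfkbid, by distance in kb of the named gene's start from the start of Nfkbid, in 3 panels for transgenic against control, transgenic against knockout and knockout against control (filled points, adjusted p under 0.05). The Hcst and Tyrobp points stand at 8.10 and 6.04 in the first panel, and no point is filled in the last.

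Whether rows might be displaced along the chromosome was described with annotation alone. The exons of every row were moved rigidly by -60 to 60 kb in steps of 0.1 kb, and the bases falling on Nfkbid exons were counted. Exons of Tyrobp fell on Nfkbid exons at moves of 4.2 to 14.9 kb and those of Hcst at 1.9 to 11 kb. The exons of Nfkbid stayed on their own gene only up to 7.0 kb. Those of Thap8, which starts 141.6 kb before Nfkbid and ends at 30290237, were too far away to reach it at any of the 1201 moves. At 39 moves, between 7.1 and 11 kb, both Tyrobp and Hcst exons but no Nfkbid exon lay on Nfkbid.

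Across the 32 rows, Pearson's r between the bases on Nfkbid and the transgenic minus control difference in CPM was highest at a move of 8.3 kb, at 0.991, with 0.99 at both 7.9 and 10.8 kb and -0.02 with rows unmoved. This is a description: almost all rows have 0 bases on Nfkbid and differences near 0, so r rests on the Tyrobp and Hcst rows, whose rise was known, and neighbouring rows share the same libraries. At 8.3 kb 244 bases of Tyrobp and 62 bases of Hcst fell on Nfkbid exons. Counted as whole reads of 67 bases inside 1 exon, 112 positions of Tyrobp but 0 of Hcst fitted there. At 7.9 kb they were 126 and 0, so neither move places a whole read of the Hcst row within an Nfkbid exon. Taken for each transgenic library in turn, the best move was 7.9 or 8.3 kb. Counting whole reads in place of bases, a measure chosen after seeing the data, it was 10.8 kb, where 217 read positions of Tyrobp and 69 of Hcst fell on Nfkbid and the Nfkbid row lay with 433 bases on Aplp1, a gene encoding a relative of the amyloid precursor. The capital letters printed above are the bases of that move. The Thap8 row then lay with 831 bases on Clip3, which encodes a linker protein of the cytoskeleton.

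Control libraries alone gave another best move, and no clear one. Across the 32 rows Spearman's rho between control CPM and bases on any protein-coding exon was 0.336 unmoved and highest at 13.6 kb, at 0.677. There 258 bases of Tyrobp and 0 of Hcst lay on Nfkbid. Over the 58 rows within 300 kb the highest rho was 0.572, at 13.5 kb, against 0.338 unmoved. At 8.3 kb rho in the 32 rows was 0.4, little above the value with rows unmoved. A move of 22.3 kb, at which no exon base of Tyrobp, Hcst or the Nfkbid row lay on Nfkbid, gave a rho of 0.67, almost the highest. These values do not fix a single move.

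**Figure D4:**
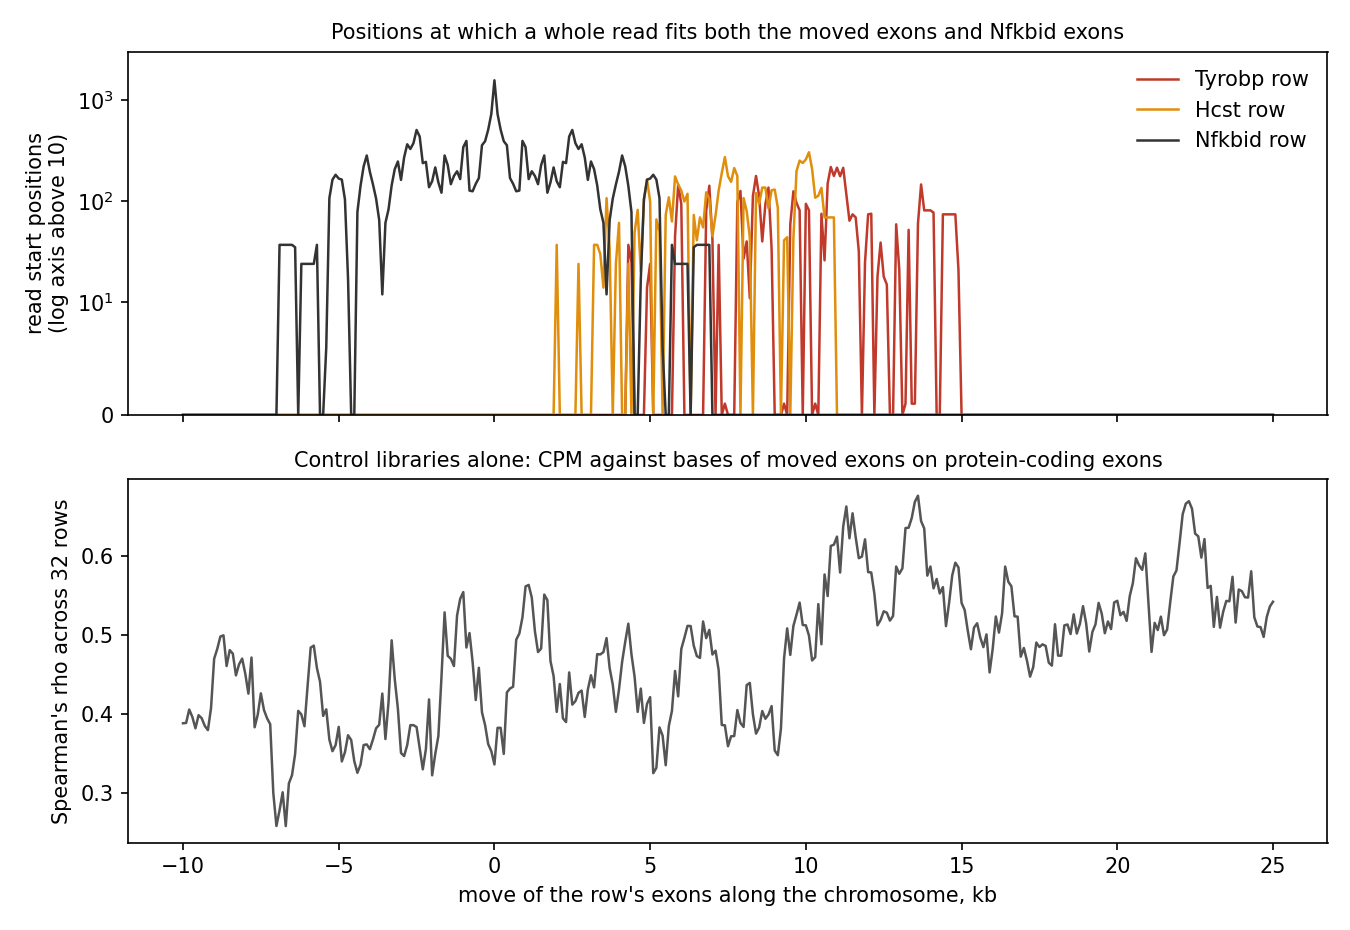
Top, number of positions at which a whole read of 67 bases fits both the moved exons of the Tyrobp, Hcst or Nfkbid row and the exons of Nfkbid, on an axis that is logarithmic above 10 and linear below, by move in kb. Bottom, Spearman's rho across 32 rows between control CPM and bases of moved exons on protein-coding exons, which is 0.336 unmoved and has its highest value, 0.677, at 13.6 kb beside others almost as high.

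Rows elsewhere with the pattern most like that of the Tyrobp row were found by Pearson's r of log2(CPM + 0.5) over the 17 libraries, among 7881 rows. They were the Vps13d (r = 0.973), Errfi1 (0.957), Unkl (0.954), Adam6b (0.954) and Aasdh (0.949) rows. These correlations are carried by the step between transgenic and other libraries, and the points share library and depth. Their fold changes were far below that of the Tyrobp row. The Vps13d row, named after a lipid transfer protein, held 1210 to 1467 CPM in the transgenic group, 392.8 to 432.5 CPM in the knockout group and 408.3 to 560.7 CPM in the control group, a log2 fold change against control of 1.49. The highest log2 fold change against control among the 5 was 2.02, in the Adam6b row. Within the window the same r with the Tyrobp row was 0.968 for Hcst, 0.759 for Nfkbid and 0.755 for Thap8. Over the 6 transgenic libraries alone r with the Tyrobp row was 0.832 for Hcst, 0 for Nfkbid and -0.75 for Thap8, and these are descriptions over 6 points.

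The NF-kB and IkB family was counted beside Nfkbid. Its list was chosen with earlier results of these data known, so its calls are a description and nothing is read from them. Of 13 rows 12 were tested, and 2 were higher and 0 lower in transgenic against control, with a median log2 fold change of 0.02, where 7.4% of all tested rows were called. The Bcl3 row, named after another nuclear IkB protein, averaged 33.1 CPM in transgenic, 7.97 in knockout and 14.4 in control libraries. It rose in transgenic against control libraries by 1.25 (SE 0.196, adjusted p = 0.000164 by edgeR) on the log2 scale. The Relb row, named after a subunit of the non-canonical pathway, rose by 0.44 (SE 0.125, adjusted p = 0.0348 by edgeR). Between knockout and control libraries 0 of the 12 were called, where 1.89% of all tested rows were. Transgenic against knockout libraries, where 10.7% of tested rows were called, had the Bcl3 row higher by 1.97 (SE 0.219, adjusted p = 1.98e-06 by edgeR). In the same comparison the row of Nfkbiz, an IkB protein close to IkBNS, fell by 0.57 (SE 0.169, adjusted p = 0.0342 by edgeR).

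Most rows named after receptors and signalling partners of DAP12 and DAP10 were too low to test. This list too was chosen with earlier results of these data known, so its calls are a description. Of 16 rows 5 were tested, and 0 were called in transgenic against control (median log2 fold change -0.14, with 7.4% of all tested rows called) or in knockout against control (median -0.03, with 1.89% called). In transgenic against knockout, with 10.7% called, 1 was lower, the row of Pik3r1, the regulatory subunit of PI3-kinase, with a log2 fold change of -0.96 (SE 0.305, adjusted p = 0.0457 by edgeR). The Klrk1 row, named after the receptor NKG2D that pairs with DAP10, held 1 to 17 counts per library and was not tested, and the Syk row, named after the kinase that binds DAP12, held 0 to 8.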

How the data were processed

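Expected counts, 1 row per gene and 1 column per library, are what the authors deposited for the 17 libraries. Per the labels' protocols, a 67 bp read with a 9 bp molecular identifier was sequenced to a stated 27 M reads per library and aligned with Bowtie2 to GRCm38. No source used here states whether the identifiers served to remove duplicate reads. Of 47643 rows, 47224 matched the GENCODE annotation used here, an earlier release than the authors', and 5.87% of values are not whole. CPM are counts over library totals. Counts were rounded and tested in R 4.3.3 with edgeR 4.0.16 (quasi-likelihood, TMM normalization, filterByExpr, 1 fit of all 17 libraries), at 0.05 after Benjamini-Hochberg adjustment over 9986 rows. The code was tested on simulated data. Alternatives used DESeq2 1.42.0, limma 3.58.1 with voom, other normalizations, filters, fits and libraries left out. Ratios were tested by exact permutation with SciPy 1.17.1. Members and lists were chosen with earlier results of these data known. Beside the members, the rule names called or overlapped rows within 150 kb, the 5 rows most like the Tyrobp row and up to 4 called rows per list. Within each group, all pairs of libraries differed by more than sampling noise.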

Additional observations from a re-analysis of the deposited data

Results flagged for a closer look

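A library stood far from its own group in 3 of the 21 groups of 4 to 6 values that were screened. How many would do so by chance was not tested. Knockout replicate 5 held 5.038 CPM in the Hcst row, above the other 4 knockout libraries, and its ratio of Hcst to Tyrobp counts was 0.4737, above every other library. Both rest on 18 Hcst counts. Control replicate 1 had the highest library total, 4.727 M counts.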

How the results depend on the processing

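The Tyrobp and Hcst rows were called higher in transgenic against control libraries under all 27 alternatives, at 5.95 to 6.15 and 7.96 to 8.38 on the log2 scale. Both rows were chosen with this rise known, so their calls are a description and nothing is read from them. The Nfkbid call ended in 14 of 27 (0.85 to 0.99) and the Thap8 call in 9 of 27 (1.42 to 1.89), so 2 of the 4 rows were called without a filter on low counts, and 2 to 4 with 1 library left out. Against knockout, the Thap8 call ended without knockout replicates 2, 3 and 5 (1.9), and the Nfkbid row was called under DESeq2, voom and without knockout replicate 1 (1.18). Leaving out 1 library gave 0 or 1 called row (Hcst, from which nothing is read) in knockout against control. There the Nfkbid value turned to -0.035 under voom, -0.24 and -0.01 without knockout replicates 1 and 3, and -0.02 without control replicate 2 (up to 0.25 without knockout replicate 4), and the Hcst value to -0.47 without knockout replicates 2, 3 and 5. Summing Tyrobp and Hcst alone gave log2 folds of 6.22 against control and 5.87 against knockout. The knockout against control difference in log2 ratio was 0.82 to 1.75 with 1 library left out, 1.73 of it without control replicate 6, and 0.35 with 0.5 added to both counts. With at least 5 counts in both rows no control library was left, so no ratio could be compared. The best move was 7.9 kb on protein-coding exons, 10.8 kb by whole reads, 13.6 and 13.5 kb in control libraries alone, and 7.9 to 8.3 kb with 1 library left out; the causes were not tested.

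The replicate numbers did not pair the libraries, with correlations of deviations of -0.07 to 0.07 against control and -0.54 to 0.39 between transgenic and knockout libraries. With replicate number as a block, 4, 0 and 3 of the 4 rows were called in transgenic against control, knockout against control and transgenic against knockout, and the Nfkbid value against control was 0.94. Of all rows, 522 were called higher and 217 lower in transgenic against control. They were 785 and 441 with only those groups fitted and 879 and 469 without knockout replicates 2, 3 and 5, and 143 and 140 were lower without transgenic replicate 5 and control replicate 3. In knockout against control they were 88 and 101, and 223 and 348 with no filter, 305 and 268 by DESeq2, 34 and 42 with only those groups, 23 and 44 with the block, 10 and 33 without the 3 knockout libraries, 50 higher by voom, and 29 to 592 and 55 to 532 with 1 library left out. In transgenic against knockout they were 633 and 432, and 420 and 231 with only those groups, 214 lower with the block, 208 lower without the 3 knockout libraries and 262 to 826 lower with 1 library left out. Counts of 3 were worth 0.635 to 0.957 CPM, which limits the Hcst and Thap8 values outside the transgenic libraries.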
